A study of Homo sapiens with 6 samples.

Results

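ZFP36, ZFP36L1, ZFP36L2, BTG1, BTG2, ZC3H12A and ELAVL1 encode proteins that set how long messenger RNAs last, and their transcripts were followed in leukaemia cells treated with cortistatin A. The 7 genes were chosen by symbol with earlier results of these arrays known, and the main probe set of each gene was selected on the highest mean level over all 6 arrays. Of the 7 genes, 5 have at least 1 probe set that the platform annotation gives to that gene alone, 16 probe sets in all, among 19775 genes measured in this way. BTG2 and ZC3H12A have no such probe set in the annotation used here and were not analysed.

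MV4;11, the line used, is an established human leukaemia line of myeloid origin that carries MLL-AF4. Its cells were kept for 3 h either in the solvent DMSO (3 arrays) or in 25 nM CA, named in the series title as cortistatin A (3 arrays). The compound, a steroid-like alkaloid, blocks the Mediator kinases CDK8 and CDK19. The wells of both groups came from a single line and were plated in triplicate, and separate cultures are not described, so the p-values reflect just the spread among these arrays, which may be technical. RNA was hybridised to Affymetrix Human U133 Plus 2.0 arrays, and the values are log2 signals after RMA normalisation, with array medians of 3.74 to 3.77.

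As background, many short-lived messenger RNAs carry AU-rich elements in their 3' untranslated regions. ZFP36 (tristetraprolin), ZFP36L1 and ZFP36L2 bind these elements through paired CCCH zinc fingers and bring in the CCR4-NOT complex, which removes the poly(A) tail. BTG1 and BTG2 also couple to that deadenylase, ZC3H12A (Regnase-1) cuts stem-loops in inflammatory transcripts, and ELAVL1 (HuR) binds AU-rich elements and protects the transcript. ZFP36 is itself an early response gene whose transcript is short-lived.

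The reference sequence before the start site is shown for ZFP36, the member with the largest difference between the groups, and for BTG1, a bright member with the opposite sign. Promoter entries of RefSeq (GRCh38.p14) were found for 5 of the 7 genes. The stretches printed are the 250 bases that end just before the annotated start, read 5' to 3' along the gene, and capitals mark matches to the motifs searched on both strands: GGGCGG as the GC box, TATAA as the TATA box, CCAAT as the CCAAT box, TGACG as the core of a cAMP response element, and the CArG box by its usual pattern. Matches may overlap each other.
ZFP36, chr19:39406597-39406846, plus strand: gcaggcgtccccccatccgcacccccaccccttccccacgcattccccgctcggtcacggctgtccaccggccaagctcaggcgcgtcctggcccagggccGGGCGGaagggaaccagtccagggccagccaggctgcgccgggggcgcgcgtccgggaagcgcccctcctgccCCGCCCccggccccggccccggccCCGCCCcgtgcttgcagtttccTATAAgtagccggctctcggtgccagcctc
BTG1, chr12:92145847-92146096, minus strand: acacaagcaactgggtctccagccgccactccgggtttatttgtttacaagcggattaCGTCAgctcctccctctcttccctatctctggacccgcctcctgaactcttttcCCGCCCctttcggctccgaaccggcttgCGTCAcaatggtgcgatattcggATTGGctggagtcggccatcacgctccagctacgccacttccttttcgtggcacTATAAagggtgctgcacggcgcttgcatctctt

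The ZFP36 stretch held 3 GC boxes, 1 TATAA starting 30 bases before the start site, and no other match. In BTG1 there were 1 GC box, 1 TATAA starting 33 bases before the start, 1 CCAAT and 2 TGACG matches. ZFP36L1 has 2 annotated starts in the table, and neither holds TATAA or a GC box. A GC box lay in 42.6% of the 35116 promoter entries of this length, TATAA in 18.9%, CCAAT in 32%, TGACG in 21.2% and a CArG box in 1.16%. No member entry held a CArG box. A match is a description of these letters and nothing was measured at these promoters.

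The labelled cell type was checked against markers. Of 12 measured genes of the myeloid leukaemia list, 10 exceeded the median over all probe sets (3.74). The brightest were LYZ at 12.40, CEBPA at 10.43, FLT3 at 9.66 and MEIS1 at 8.62 in DMSO. Lower in DMSO were CSF1R at 5.56, MPO at 5.24, ITGAM at 5.12 and SPI1 at 4.36. FCGR1A at 3.02 and CD14 at 2.74 lay below the median. CEBPA and KIT of this list passed limma. The mean over the 12 genes was 6.79 to 6.86 on the DMSO arrays and 6.90 to 6.98 on the cortistatin A arrays. For the 5 lists of B cell, T cell, erythroid, epithelial and fibroblast markers the means were 3.24 to 4.16. Of their 21 measured genes 11 lay above the median, and 0 differed between the groups by limma. In DMSO the epithelial KRT18, at 7.18, and the fibroblast COL1A1, at 6.10, were brighter than CSF1R, MPO, ITGAM and SPI1. A control index, the log2 signal at the 3' end less that at the 5' end averaged over beta-actin and GAPDH, was 1.365 to 1.46 in DMSO and 1.504 to 1.62 with cortistatin A, and so moved with the treatment. In bulk RNA, fewer cells of a type and less RNA per cell cannot be told apart.

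None of the 5 measured members passed limma over all genes at an adjusted p under 0.05. That threshold was passed by 115 genes (0.582%), with 0.445% of all genes higher and 0.137% lower after cortistatin A (88 and 27 genes; 101 and 14 with arrays centred on housekeeping genes). ZFP36 came closest, at position 116 of 19775 by p, directly behind the last gene that passed. The groups did not overlap for 3 of the 5 members, ZFP36, BTG1 and ELAVL1, and for 19.4% of all genes. ZFP36 was the single member with an unadjusted limma p under 0.05, a level that 6.81% of all genes reached as higher and 5.83% as lower. The adjusted p-values below come from that fit over all genes. The members were proposed with results of the same contrast known, so the p-values describe their place among all genes and are no independent evidence.

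**Figure D1:**
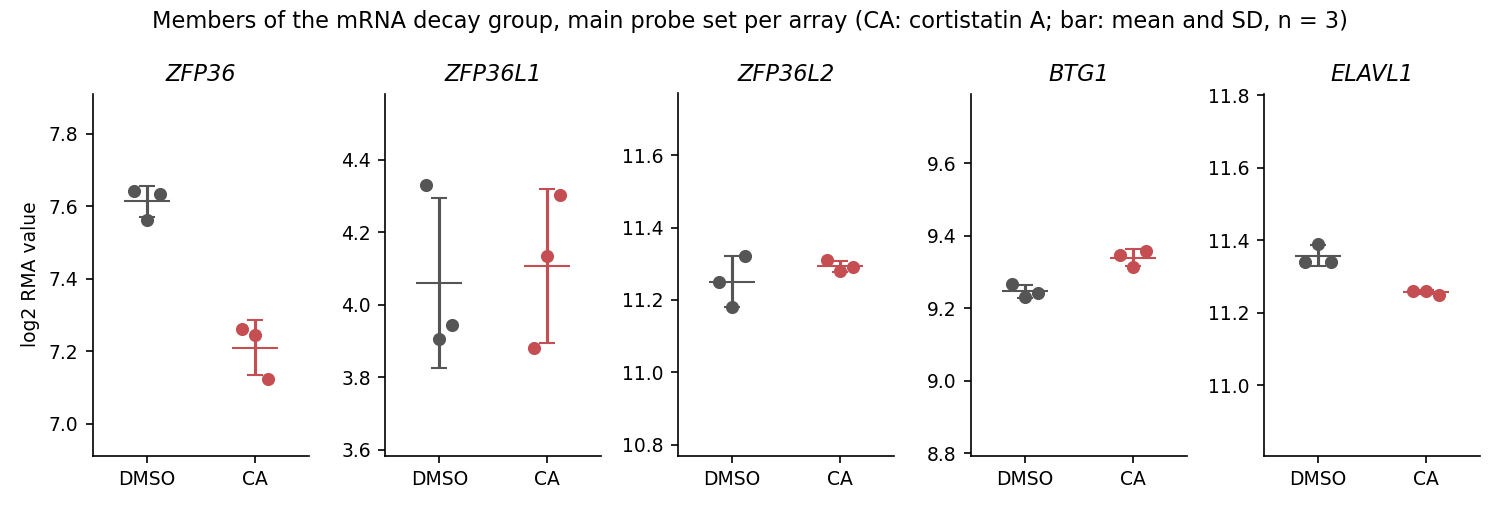
Log2 RMA value of the main probe set of each measured member on every array (points), with the mean and SD of 3 arrays per group; each panel spans 1 log2 unit. ZFP36 lies between 7.56 and 7.64 in DMSO and between 7.12 and 7.26 with cortistatin A (CA), and the groups of ZFP36L1 and ZFP36L2 overlap.

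ZFP36, the founding member of its family, read 7.64, 7.56 and 7.64 on the DMSO arrays and 7.26, 7.25 and 7.12 on the cortistatin A arrays. All 3 treated arrays lay below all 3 controls, and the lowest value was that of cortistatin A replicate 3. The log2 difference was -0.40 ± 0.06 (limma SE, n = 3 arrays per group, 95% interval -0.54 to -0.26), a 1.32-fold lower level, with a limma adjusted p of 0.0510. In size it was the 74th largest decrease of 19775 genes. A single probe set stands for the gene, so no other probe set could be set beside it.

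The call of ZFP36 turned with the processing. It passed with dim genes left out (limma adjusted p = 0.0150), with the mean of probe sets per gene (0.0485), where its own value is unchanged and other genes differ, and with trend and robust variances (0.000360). It did not pass in the other 12 of 15 alternatives, and the limma adjusted p ranged from 0.000360 to 0.469. Among these 12, the replicate block, the control index and the fits with 1 array left out called only 0 to 4 of all genes. With the control index (3' minus 5' signal) in the fit the difference was -0.34 (limma adjusted p = 0.469). Leaving out 1 array at a time gave -0.43 to -0.36.

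ZFP36L2, the paralog with a role in blood cell development, read 11.25, 11.18 and 11.32 in DMSO and 11.31, 11.28 and 11.29 with cortistatin A. The treated arrays lay inside the range of the controls. The log2 difference was 0.05 ± 0.05 (95% interval -0.08 to 0.18, limma adjusted p = 0.776). Its other 3 probe sets, all above the median of all probe sets, were at 0.05, 0.03 and 0.16, with overlapping groups in each. With the control index in the fit the main probe set stood at -0.010, with the sign turned. The interval of the main probe set leaves out a decrease as large as that measured for ZFP36.

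ZFP36L1 was measured near the median of the arrays and with a wide spread. Its main probe set read 4.33, 3.90 and 3.95 in DMSO and 3.88, 4.14 and 4.30 with cortistatin A, and the groups overlapped almost fully. The log2 difference was 0.05 ± 0.15 (95% interval -0.31 to 0.40, limma adjusted p = 0.930). The other 3 probe sets were dimmer, with DMSO means of 1.87 to 2.58, and stood at -0.10 to -0.05. The sign therefore depends on the probe set. The interval of the main probe set reaches down to -0.31, which is short of the -0.40 measured for ZFP36.

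The members of the family were set against each other by the log2 difference between 2 paralogs on each array. ZFP36 minus ZFP36L2 was -3.61, -3.61 and -3.68 in DMSO and -4.05, -4.04 and -4.17 with cortistatin A. The groups did not overlap and their means differed by -0.45 (two-sided exact permutation p = 0.1, which 3 against 3 arrays cannot go below, and 0.3 after Benjamini-Hochberg adjustment over the 3 pairs). ZFP36 minus ZFP36L1 differed by -0.45 as well, but with overlapping groups (exact permutation p = 0.2, adjusted 0.3). For ZFP36L1 minus ZFP36L2 the difference was -0.0015 (exact permutation p = 1, adjusted 1). With so few arrays no contrast could reach a p under 0.05, so this test cannot decide whether the family changed unequally. The contrasts give no order of levels, since levels of different probe sets are not on one scale.

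BTG1, an antiproliferative cofactor of the CCR4-NOT deadenylase, read 9.27, 9.23 and 9.24 in DMSO and 9.35, 9.31 and 9.36 with cortistatin A. All 3 treated arrays lay above the controls. The difference was small, 0.09 ± 0.05 on the log2 scale or 1.07-fold (95% interval -0.02 to 0.20, limma adjusted p = 0.475). The other bright probe set was at 0.04 with overlapping groups, and the dim one at 0.01. Both bright probe sets of BTG1 are of the _s_at type, whose probes can match more than 1 transcript.

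ELAVL1, the stabilising AU-rich binder, read 11.34, 11.39 and 11.34 in DMSO and 11.26, 11.26 and 11.25 with cortistatin A. The treated arrays all lay below the controls. The log2 difference was -0.10 ± 0.05 (95% interval -0.21 to 0.01, limma adjusted p = 0.449), or 1.07-fold. Its other 3 probe sets had negative signs too, at -0.12, -0.17 and -0.06, and the groups did not overlap in the first and second of these. The probe sets read the same RNA and are not independent of each other. With trend and robust variances ELAVL1 passed (limma adjusted p = 0.0420), and over its 15 alternatives the limma adjusted p was 0.0420 to 0.842.

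**Figure D2:**
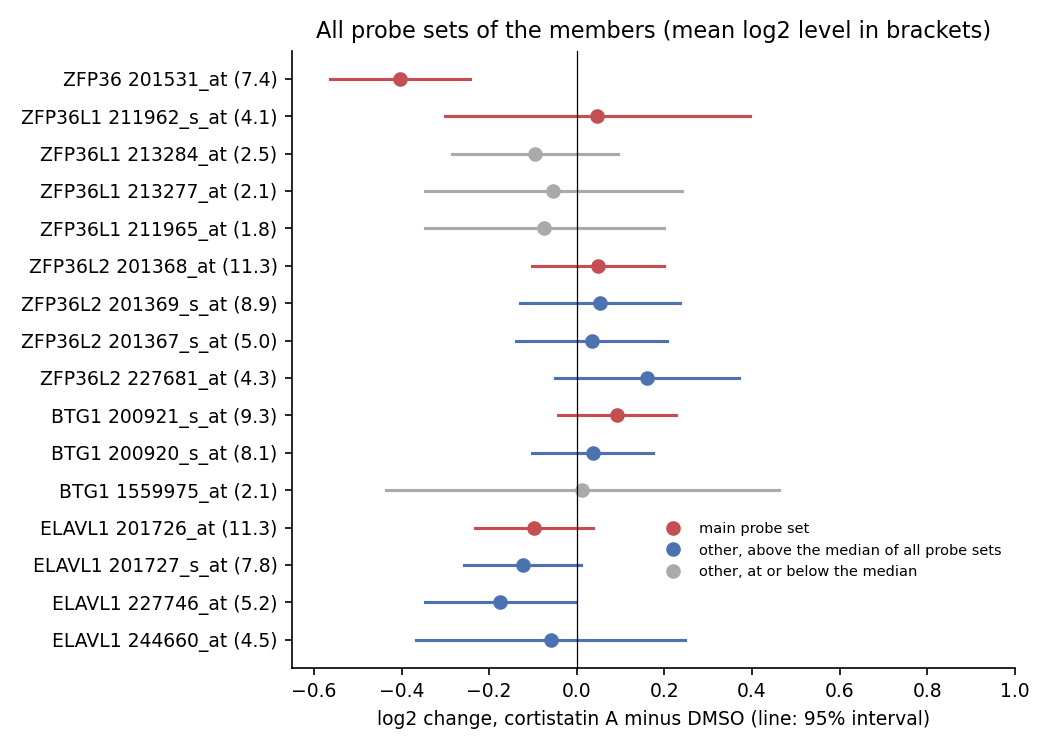
Log2 difference, cortistatin A minus DMSO, of all 16 probe sets of the members with 95% intervals, from a limma fit over all non-control probe sets; the mean log2 level stands in brackets and colours separate main, other bright and dim probe sets. The single ZFP36 probe set lies at -0.40, all 4 of ELAVL1 lie left of 0, and all 4 of ZFP36L2 and all 3 of BTG1 lie right of it.

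Apart from ZFP36 the members ranked far from the threshold. ELAVL1 and BTG1 ranked 3212 and 3629 by limma p, ZFP36L2 10374 and ZFP36L1 16237. The genes whose values followed ZFP36 most closely over the 6 arrays were CCNI, a cyclin-like gene, the long noncoding RNA TUG1 and DEPDC5, a subunit of an mTORC1 inhibitor, with Pearson r of 0.9934 to 0.9942 among 12650 genes above the median. Their differences were -0.17, -0.29 and -0.16, none past the threshold (limma adjusted p from 0.121 to 0.224). In all, 387 genes had r above 0.9 with ZFP36. For ZFP36L1 the closest were ZYX, ABCF3 and NOTCH1 (r from 0.985 to 0.998), and for ZFP36L2 CCAR1, RIOX1 and RPL10A (r from 0.981 to 0.984). The points share the arrays and their group, and these likenesses are descriptive.

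**Figure D3:**
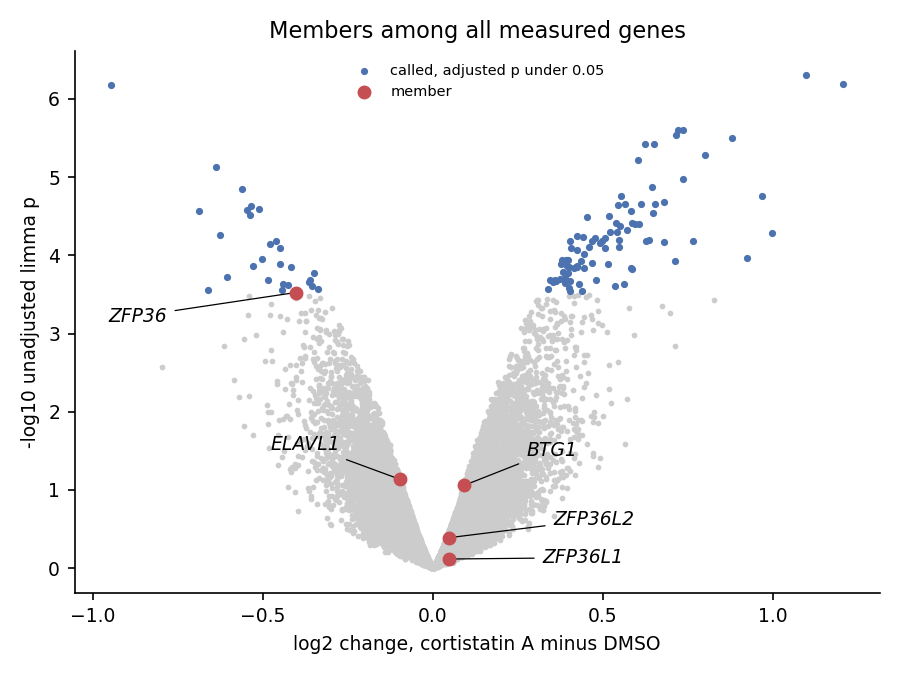
Log2 difference, cortistatin A minus DMSO, against -log10 of the unadjusted limma p for 19775 genes, with the 115 genes past the threshold in blue and the 5 measured members in red. ZFP36 sits at the lower edge of the blue points on the left, and the other 4 members lie within 0.10 of 0.

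The machinery the members act through was then described with gene lists of 180 genes, 165 of them measured, the members included. Over all 10 lists 2 genes rose and 0 fell, against 0.445% and 0.137% of all genes, and both that rose are on the list of AU-rich transcripts. For the list counts that follow, 6.81% of all genes had an unadjusted limma p under 0.05 as higher and 5.83% as lower. The groups did not overlap for 19.4% of all genes. The genes named have the smallest p of each list, so their lack of overlap is selected. The median difference of all genes was 0.0065 and list medians lay between -0.06 and 0.05. With arrays centred on housekeeping genes the medians of 5 lists (BTG and TOB proteins, deadenylation, decapping, other AU-rich binders, transcripts cut by ZC3H12A) turned from negative to positive. Centring moves every gene alike, and the median of all genes went to 0.037. The medians of these 5 lists stayed below that of all genes, so their change of sign is no result about them.

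Among 8 measured ZFP36 family and Regnase proteins 0 passed by limma, and 1 higher and 2 lower had an unadjusted p under 0.05. Beside ZFP36 these were ZC3H12C, a relative of Regnase-1 near the floor of the arrays (DMSO mean 1.69, difference 0.19, and -0.09 for its other dim probe set), and RC3H2, a Roquin protein that binds stem-loops (-0.19). The other bright probe sets of RC3H2 stood at -0.19, -0.08, 0.07 and 0.20, so its direction is not settled. Among 5 measured BTG and TOB proteins 0 passed and 2 lower had an unadjusted p under 0.05. These were TOB1 (-0.22 ± 0.06, limma adjusted p = 0.193), which links CCR4-NOT to poly(A)-binding protein, and BTG3 (-0.16).

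Of 17 measured deadenylation genes 0 passed by limma. An unadjusted limma p under 0.05 was reached by 2 higher and 2 lower genes (11.8% each, against 6.81% and 5.83% of all genes). CNOT8, a catalytic subunit of CCR4-NOT, read 8.74, 8.67 and 8.62 in DMSO and 8.41, 8.45 and 8.40 with cortistatin A. Its groups did not overlap, and the difference was -0.25 ± 0.05 (limma adjusted p = 0.136), with its other 2 probe sets at -0.21 and -0.09. CNOT1, the scaffold that ZFP36 proteins bind, stood at -0.14 ± 0.05 (limma adjusted p = 0.293), and its other probe sets at -0.19 and -0.14. TNKS1BP1, a protein associated with CCR4-NOT, was at 0.36 from a probe set below the median of all probe sets.

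Of 20 decapping and 5' decay genes, all measured, 0 passed, and 1 higher and 2 lower had an unadjusted limma p under 0.05. DDX6, the helicase that joins CCR4-NOT to decapping, read 9.21, 9.19 and 9.29 in DMSO and 9.54, 9.43 and 9.52 with cortistatin A. The treated arrays were all above the controls, by 0.27 ± 0.06 (limma adjusted p = 0.136), and its other 2 probe sets stood at 0.19 and 0.20. The decapping activators DCP1A (-0.22) and DCP1B (-0.18) had the opposite sign. DCP1A has a second bright probe set at -0.25.

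Of 17 exosome and SKI complex genes 0 passed, and 2 higher and 1 lower had an unadjusted limma p under 0.05. The exosome subunits EXOSC3 and EXOSC4 stood at 0.16 and 0.15, and EXOSC6 at -0.29, with its other probe sets at -0.04 and -0.05. Of 8 measured nonsense-mediated decay genes 0 passed, 1 lower had an unadjusted p under 0.05, with values between -0.12 (SMG8, a subunit of the SMG1 kinase complex) and 0.07 (UPF2, an adaptor of UPF1), and SMG9, a partner of SMG8, at -0.11. Of 21 other proteins that bind AU-rich or 3' untranslated sequence, ELAVL1 included, 0 passed, and 2 higher and 3 lower had an unadjusted p under 0.05. CPEB4, a cytoplasmic polyadenylation factor, stood at -0.44 ± 0.10 (limma adjusted p = 0.149), AUH at -0.15, and the neuronal ELAVL4, a dim gene here, at 0.28, with its other 3 probe sets, also dim, at -0.05, -0.15 and 0.04.

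Of 17 measured enzymes and partners that act on the members 0 passed by limma, and 1 lower had an unadjusted p under 0.05. This was DUSP1, a phosphatase that switches off the p38 pathway upstream of ZFP36 phosphorylation. It read 5.53, 5.44 and 5.71 in DMSO and 5.15, 5.17 and 5.33 with cortistatin A, a difference of -0.34 ± 0.09 (limma adjusted p = 0.198). Its other probe sets stood at 0.01 and 0.25, so the probe sets disagree. MALT1, the protease that cleaves Regnase-1, stood at -0.24 ± 0.11 with overlapping groups, and BTRC, a ubiquitin ligase subunit, at -0.13. A further bright probe set of BTRC stood at 0.10, so its direction is not settled either.

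**Figure D4:**
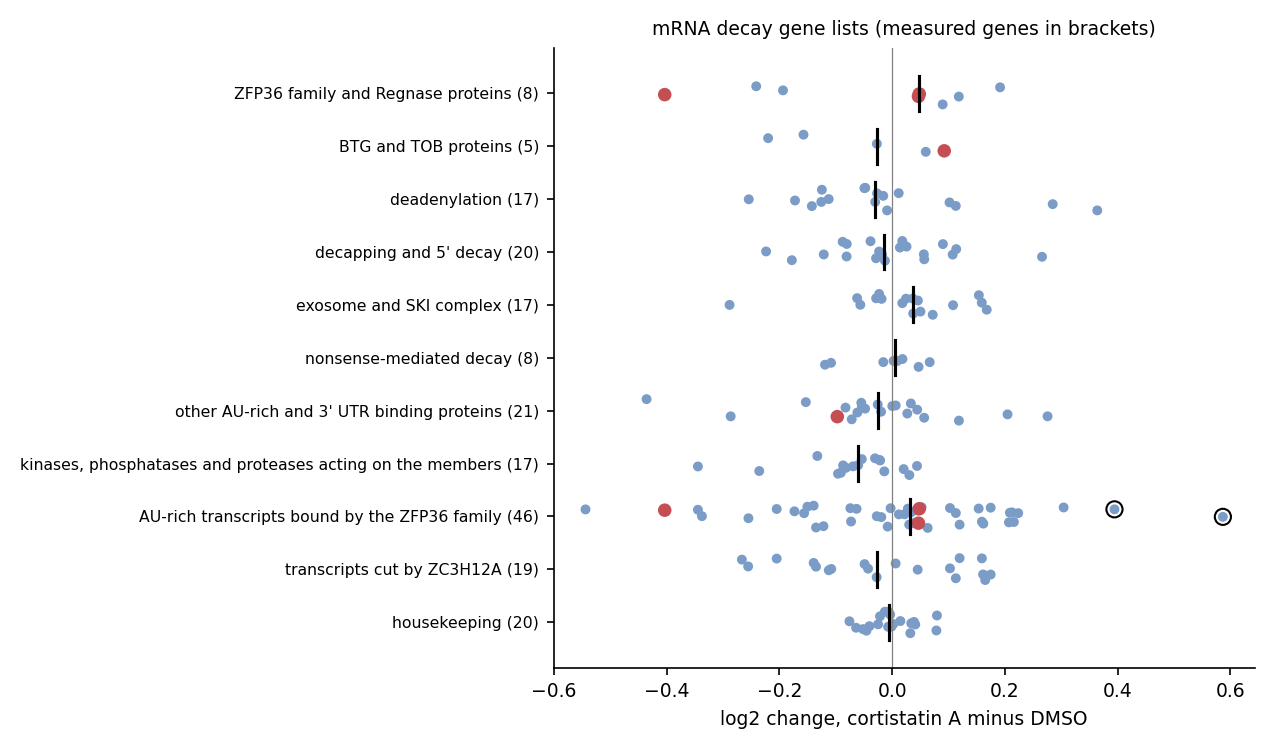
Log2 difference, cortistatin A minus DMSO, of each measured gene on the 10 mRNA decay lists and the housekeeping list (vertical bars: list medians; red: members; black rings: adjusted p under 0.05; points are spread vertically for display). List medians lie between -0.06 and 0.05, and the 2 ringed genes are PIM1 and MYC.

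The transcripts that ZFP36 proteins are known to bind were examined next. Of 46 measured AU-rich transcripts 2 rose and 0 fell by limma, against 0.445% and 0.137% of all genes. An unadjusted limma p under 0.05 was reached by 6 higher and 6 lower genes (13.0% each, against 6.81% and 5.83% of all genes). The median was 0.03, with a range from -0.54 to 0.59. The list holds MYC, which earlier results of these arrays had already shown, and the members ZFP36, ZFP36L1 and ZFP36L2. ZFP36 is among the 6 lower genes. The list is therefore no independent evidence of a direction.

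PIM1, a survival kinase, read 7.79, 7.64 and 7.88 in DMSO and 8.36, 8.28 and 8.43 with cortistatin A. It rose by 0.59 ± 0.08 on the log2 scale (limma adjusted p = 0.0341). MYC, the proliferation factor, read 10.76, 10.69 and 10.77 against 11.12, 11.15 and 11.13, and rose by 0.39 ± 0.05 (limma adjusted p = 0.0332), or 1.31-fold. Both calls ended when any one of the 6 arrays was left out (0 of 46 called). This held for DMSO replicates 1, 2 and 3 and for cortistatin A replicates 1, 2 and 3. Both calls also ended with the replicate block, with all probe sets tested as such and with the control index in the fit. The fits with 1 array left out called only 0 to 4 of all genes, and the block and the index called 0.

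The next genes of this list by p, named after their values were seen, were ZFP36 itself, CDKN1A, EGR1 and TNF. CDKN1A, the cell cycle inhibitor p21, stood at -0.34 ± 0.05 (limma adjusted p = 0.0679), EGR1, an immediate early zinc finger factor, at -0.54 ± 0.09 (limma adjusted p = 0.0720), and TNF, the classical ZFP36 target, at 0.30 ± 0.06 (limma adjusted p = 0.109). The chemokine CXCL8 (0.03) and the cytokine IL1B (-0.02) differed by less than their standard errors. Of 19 measured transcripts known to be cut by ZC3H12A 0 passed, and 1 higher and 1 lower had an unadjusted limma p under 0.05. REL stood at -0.27 ± 0.07 (limma adjusted p = 0.184), and 3 further bright ones of its probe sets gave -0.30, -0.26 and -0.14. In the same list the transferrin receptor TFRC stood at 0.16 ± 0.05 (limma adjusted p = 0.227) and CTLA4 at 0.16, with its other bright probe set at -0.03. Arrays measure the amount of a transcript, and neither its stability nor the activity of the proteins described here was measured.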

How the data were processed

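The authors deposited 1 table with a value per probe set and array. RMA and the package affy are listed, without versions, in the submitters' processing notes, and the values were taken as log2 from their range (0.81 to 13.84). RMA in its usual form equalises the arrays, so a shift of all transcripts one way would be removed, and it compresses dim values. Depth does not apply to arrays, and their number limits the precision.

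Of 54675 probe sets 62 are controls, 41091 name 1 gene, 1801 several and 11721 none in the platform annotation, and 41037 of the single-gene probe sets took their symbol from RefSeq by gene ID. The brightest single-gene probe set over the 6 arrays stood for each of 19775 genes. Cortistatin A and DMSO were compared with limma 3.58.1 in R 4.3.3 (lmFit, eBayes, a group term alone, two-sided, adjusted p under 0.05 after Benjamini-Hochberg over all genes), and paralogs with exact permutation tests. The limma step over all genes was tested on simulated data with known changes. "Bright" means a mean over the 6 arrays that exceeds the median probe set, and "dim" one that does not. Differences are cortistatin A minus DMSO with limma standard errors. Other probe sets were fitted over all non-control probe sets.

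The members and lists were chosen with earlier results of these data known. The genes named were all members, up to 3 genes of smallest p per list, the 3 genes most like each of ZFP36, ZFP36L1 and ZFP36L2, and up to 4 markers. CDKN1A, EGR1, TNF, CXCL8, IL1B, NOCT and RC3H1 lie outside that rule and were chosen after their values were seen. The same holds for the markers CD14, KIT, CSF1R, MPO, ITGAM, SPI1, FCGR1A, KRT18 and COL1A1. The planned BTG1 against BTG2 contrast was not run, as BTG2 was not analysed. Alternatives were the replicate block, dim genes left out, the mean of probe sets, probe sets without the _x_at and _s_at types, housekeeping centring, a further quantile normalization, trend and robust variances, leaving out every array in turn, and, added after seeing the data, all probe sets tested as such and a 3' to 5' index of beta-actin and GAPDH as a covariate. A planned index over more control transcripts is not reported here.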

Additional observations from a re-analysis of the deposited data

How the results depend on the processing

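Against 115 genes called, limma called 321 with dim genes left out, 76 with probe sets averaged per gene, 54 without the _x_at and _s_at types, 762 with trend and robust variances, 28 probe sets when all were tested as such, 0 with the index as a covariate (1805 at an unadjusted p under 0.05) and 0 to 4 with 1 array left out. The cause was not tested. With the replicate number as a block 0 genes were called (2243 at an unadjusted p under 0.05). Same-numbered arrays deviated together at r of -0.055, 0.0095 and 0.016 over all genes, so no pairing by number was seen. Such correlations cannot exclude an effect shared by same-numbered arrays on some genes. ZFP36 kept -0.40 under the block (limma adjusted p = 0.244). ZFP36 passed at -0.40 with trend and robust variances, with probe sets averaged and with dim genes left out, and ELAVL1 passed at -0.0975 with the first of these. ZFP36L1 turned to -0.044 with the mean of probe sets, -0.10 without the _x_at and _s_at types and -0.23 with the index, and ranged from -0.052 to 0.18 with 1 array left out. ZFP36, BTG1 and ELAVL1 kept their sign in all 15 alternatives, and ZFP36L2 turned in 1, to -0.010 with the index. ZFP36L1 minus ZFP36L2 ranged from -0.10 to 0.13 with 1 array left out.

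Of 35 bright AU-rich transcripts 6 were called with dim genes left out, where 321 of 12651 genes were called in all. MYC, PIM1 and TNF were higher, and CDKN1A, EGR1 and the member ZFP36 lower. Trend and robust variances called 8 of 46, 4 of them higher and ZFP36 among the lower, against 762 of 19775 of all genes. Without the _x_at and _s_at types 1 was called (PIM1), against 54 of 17098 of all genes. MYC was not tested there, as its only probe set is of the _s_at type. The block, the index, all probe sets or 1 array left out gave 0. With dim genes left out 1 gene each was called among 6 ZFP36 and Regnase genes (ZFP36) and 16 deadenylation genes (CNOT8). The same held for 20 decapping genes (DDX6) and 17 exosome genes (EXOSC6). The mean of probe sets, with 76 of 19775 genes called in all, called 1 ZFP36 family gene (ZFP36) and 1 other AU-rich binder (CPEB4). Trend and robust variances called 1 of 8 ZFP36 or Regnase genes and 1 of 5 BTG or TOB genes. They also called 2 each of 17 deadenylation, 20 decapping and 17 exosome genes, 21 other AU-rich binders and 19 transcripts cut by ZC3H12A. Signals near the median, as for ZFP36L1, limit what these arrays can show.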

Other observations

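CPEB4, which binds 3' untranslated sequence and regulates poly(A) length, was singled out after its values were seen. Its main probe set read 5.62, 5.33 and 5.30 in DMSO and 4.997, 4.91 and 5.03 with cortistatin A, with no overlap. Its other probe sets stood at -0.49 (bright), -1.07 (dim, DMSO mean 3.64) and -0.06 (dim, DMSO mean 1.87). CPEB4 passed when its probe sets were averaged (-0.51, limma adjusted p = 0.0420) and under trend and robust variances, at a limma adjusted p of 0.0210, and not with the main probe set (limma adjusted p = 0.149). Among the other genes of the lists, NOCT of the deadenylation list stood at 0.28 ± 0.10 (limma adjusted p = 0.305). The Roquin gene RC3H1 stood at -0.24 ± 0.11 with overlapping groups (limma adjusted p = 0.417). Other probe sets of these genes are not given here.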
